A study of Capra hircus with 198 samples.

Results

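The adrenal cortex and the ovary were compared with the 6 libraries labelled adrenal gland (cortex) and the 6 libraries labelled ovary, which make 12 libraries of a goat expression atlas of 33 tissues with 6 libraries each. Each of 6 adult females of the Murciano-Granadina dairy breed gave 1 library per organ. The sample titles mark goats 2, 3 and 6 as lactating and goats 54, 64 and 73 as dry. Goat was entered as a block, so that an organ was set against the other organ of the same animal. The labels give no treatment or genetic change, and no age beyond adult, stage of the oestrous cycle, dissection margin or library batch. State is therefore bound to the animals and to whatever else differed between these 2 sets of 3 goats.

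The adrenal cortex and the ovary share an embryonic origin in the adrenogonadal primordium and the first steps of steroid synthesis. In both, cholesterol is moved into mitochondria by STAR and its side chain is cleaved by CYP11A1, an enzyme that receives its electrons from FDXR through FDX1. The cortex makes glucocorticoids and mineralocorticoids all through life under ACTH and angiotensin, whereas in the ovary theca, granulosa and luteal cells make androgens, oestrogens and progesterone in amounts that follow the cycle of follicles and corpora lutea. The comparison asks how far these organs share their steroid-making genes in the adult female and which genes set them apart.

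Values are given as CPM, the deposited expected counts of each library scaled to one common total. They are compared between libraries and not between genes, since they are not divided by length. Fold changes are log2 values of adrenal cortex over ovary from edgeR, with their standard error, and a gene is called when its adjusted p is under 0.05. Totals ran from 4.65 to 5.62 M counts in adrenal cortex and from 2.78 to 5.78 M in ovary, where goat 54 had the lowest. The adrenal library was the larger in 5 of 6 goats, by 1.20-fold on average (exact paired permutation test, two-sided p = 0.0938, where the smallest possible p is 0.0312). Annotated lncRNA features took 83.4% to 87.3% of the counts in adrenal cortex and 83.0% to 88.1% in ovary, so the genes described here rest on a small share of each total. For a gene at 0 in all 6 libraries of an organ, only the least possible fold is printed. It is taken against 3 counts over these libraries, which is 0.0966 CPM in adrenal cortex and 0.114 CPM in ovary. In bulk tissue, fewer cells of a type and less RNA per cell cannot be told apart.

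The libraries labelled ovary differed among themselves in genes that mark ovarian and epithelial cells, and every ovarian value is drawn from this mixed set. FOXL2, the factor that keeps granulosa cells in their female fate, stood at 4.51, 14.1 and 6.12 CPM in the ovary libraries of goats 2, 3 and 6 and at 0, 0.173 and 0.834 in those of goats 54, 64 and 73. GATA4, a gonadal somatic cell factor, was at 10.7, 12.6 and 8.09 CPM in the former and at 0, 0.865 and 1.25 in the latter. NR5A1, the master regulator of steroidogenic cells, gave 2.37, 7.87 and 9.4 CPM against 0, 1.04 and 0. TCF21, a factor of stromal progenitors, gave 6.88, 16.2 and 10.3 CPM against 1.08, 2.42 and 0.834. Each of the 3 libraries labelled ovary from dry goats thus carried less of these 4 factors than any from a lactating goat. TCF21 stayed above its median tissue (0.246 CPM) in all 3. Other ovarian genes did not follow these factors. The summed level of 18 granulosa and theca markers overlapped, at 57.2, 109.6 and 83.1 CPM in the lactating ovaries and 53.8, 59.0 and 68.3 CPM in the dry ones. WT1, given below, was highest in goats 54 and 64. The ovary libraries of goats 54 and 64 held genes of ciliated epithelium. FOXJ1, which switches on motile cilia, was at 0 in the lactating goats and at 30.2, 32.3 and 1.67 CPM in goats 54, 64 and 73. The axonemal dynein DNAH5 was at 0, 0 and 1.09 CPM in the former and 147, 149.6 and 2.71 CPM in the latter. The epithelial adhesion gene EPCAM was at 2.13, 1.19 and 0.874 CPM (lactating) and 64.4, 55.7 and 19.8 CPM (dry). The summed level of 14 surface epithelium and oviduct markers was 28.5 to 37.9 CPM in the lactating ovaries, 433 and 427 CPM in goats 54 and 64 and 59.3 CPM in goat 73. In adrenal cortex it was 14.3 to 29.3 CPM, and KRT7, KRT18, PAX2 and FOXJ1 were at 0 in all 6 libraries there. The library of goat 73 was instead the highest of the 6 in COL1A1, the main fibrous collagen (6.84, 4.5 and 59.4 CPM in goats 54, 64 and 73), and in the smooth muscle actin ACTA2 (19.4, 26.8 and 126 CPM).

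**Figure D1:**
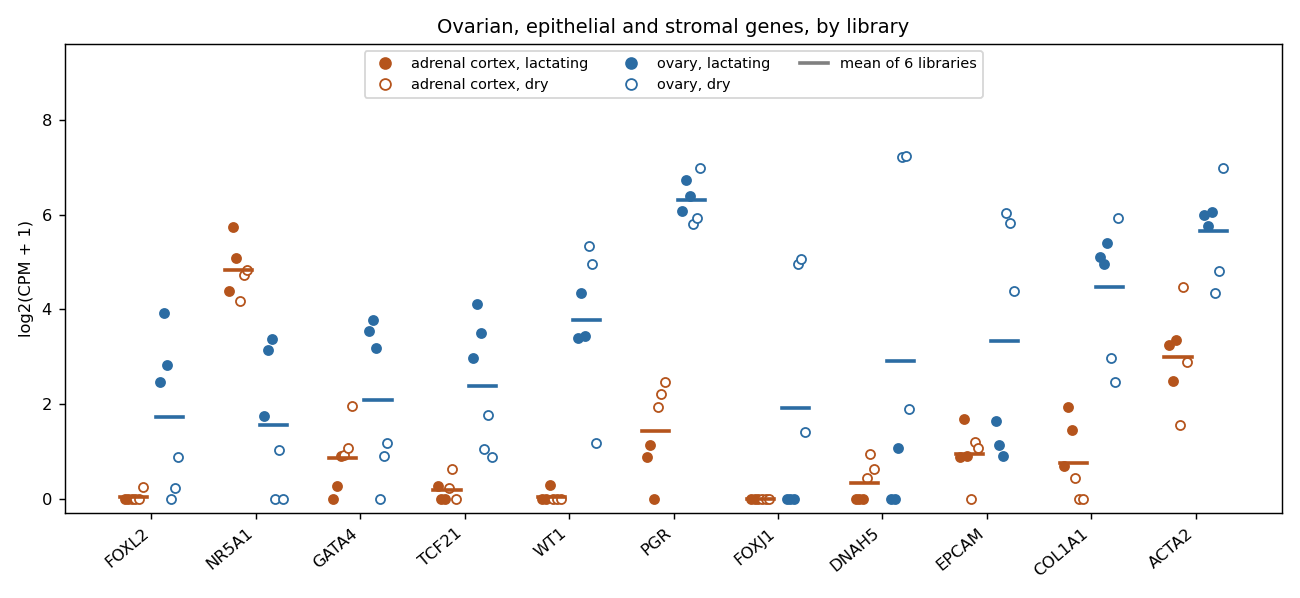
Values of 11 genes in the 12 libraries as log2(CPM + 1), with adrenal cortex in orange, ovary in blue, lactating goats filled and dry goats open, and a bar at the mean of 6 values on this scale. FOXL2, GATA4 and TCF21 are higher in each of the 3 lactating ovaries than in any of the 3 dry ones, whereas FOXJ1, DNAH5 and EPCAM are highest in 2 of the dry ones (DNAH5 at 147 and 149.6 CPM).

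Each of the 12 libraries was closest to the mean profile of its own labelled tissue among the 33 (Spearman over features, own goat left out of every mean). The value was 0.935 to 0.947 for adrenal cortex and 0.876 to 0.926 for ovary. The next tissue was the adrenal medulla for all 6 adrenal cortex libraries, and the lung for the ovary libraries of goats 54 and 64. These 2 ovary libraries differed from each other far less than any other ovarian pair, with a chi-square per degree of freedom of 2.67 against 7.30 to 52.5, where counting noise alone gives 1. They exceeded counting noise and were kept as 2 samples. The ovary mean set against each of them held the other, so their closest tissue cannot show what these pieces were. Since the 3 libraries low in these 4 factors are the 3 dry ones, lactation state and the makeup of the sampled piece cannot be told apart, and the counts of called list members below are given also for the lactating goats alone. The adrenal cortex libraries carried the steroid genes of their label, described next, and also RNA of chromaffin cells, the adrenaline-making cells of the medulla. Their summed level over 20 chromaffin markers ran from 269 CPM in goat 6 to 794 CPM in goat 54, against 139 to 274 CPM in ovary and 333 to 2806 CPM in the libraries labelled adrenal medulla. Most of the ovarian sum was SLC18A2, a vesicle transporter of monoamines, singled out after its values were seen, which averaged 168 ± 59.2 CPM (SD, n = 6) in ovary, 156 ± 14.7 CPM in adrenal cortex and 188 CPM in the median tissue. Without it the sum of the other 19 markers was 102 to 645 CPM in adrenal cortex, 19.6 to 35.5 CPM in ovary and 158 to 2598 CPM in adrenal medulla. In goats 3 and 73 it was higher in cortex (247.8 and 312.5 CPM) than in medulla (158.3 and 216.2 CPM). The 2 adrenal labels are thus not parted by this sum in every goat. This sum keeps DDC, which averaged 65.5 CPM in adrenal cortex and 45.3 CPM in adrenal medulla. The sum in adrenal cortex therefore need not stand for chromaffin RNA alone, least of all in goat 6, where CHGB, SCG2 and TH were lowest. NPY was at 0 in all 6 adrenal cortex libraries, and SCG5, NPY and CARTPT were at 0 in all 6 ovary libraries.

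Of 21124 features tested, 27.3% were called, 3233 of them (15.3%) higher in adrenal cortex and 2525 (12%) higher in ovary, and the median fold over all features tested was -0.07. Among genes outside the lncRNA annotation, 18.9% were called higher in adrenal cortex and 9.61% higher in ovary, while for lncRNA features the shares were 9.74% and 15.6%. With the lactating goats alone these shares were 21.1% and 11.7% outside the lncRNA annotation and 11.8% and 16.4% for lncRNA features. The gene lists below hold no lncRNA features, so their counts of calls stand beside the shares outside that annotation. Over all features the lactating goats alone gave 30.9% of 18628 called, 17.3% higher in adrenal cortex and 13.6% higher in ovary. Without goats 54 and 64 the share was 21.0% (12.3% and 8.66%), and with the dry goats alone 14.0% (8.43% and 5.55%). Of the calls made with all goats, 4134 were also called in the same direction with the lactating goats alone. Scaling by total counts alone moved the median of all features from -0.07 to -0.38 and the split of calls to 2252 higher in adrenal cortex and 4898 higher in ovary. That is 31.5% of calls higher in adrenal cortex, against 56.1% with the main scaling, so the balance between directions over all features rests on the scaling.

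**Figure D2:**
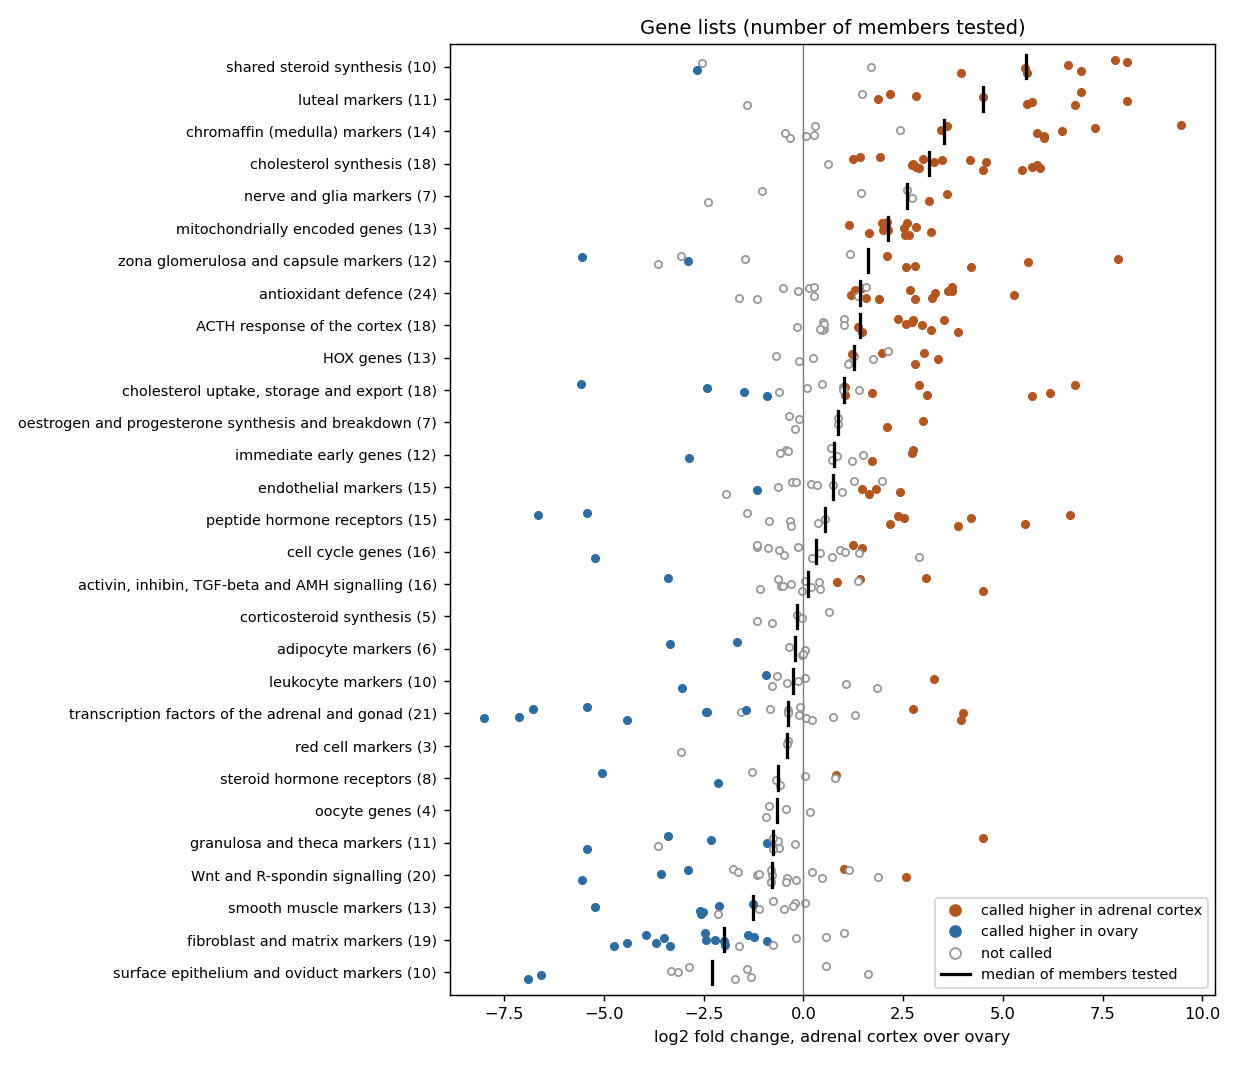
Log2 fold change of adrenal cortex over ovary for each tested member of 29 gene lists, ordered by the median of the members (black bar), with members called higher in adrenal cortex in orange, higher in ovary in blue and others open. Shared steroid synthesis (median 5.58) and cholesterol synthesis (3.15) lie far to the right, and fibroblast and matrix markers (-1.98) to the left of 0.

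The common route of steroid synthesis had the highest median of the 29 lists. Of 11 matched members, 10 passed the filter on low counts, 7 were called higher in adrenal cortex and 1 higher in ovary, with a median of 5.58 against -0.07 for all features. Among all genes outside the lncRNA annotation 18.9% and 9.61% were called in these directions. With the lactating goats alone the list again gave 7 and 1, of 8 tested. STAR ranged over 399 to 623 CPM (median 497) in adrenal cortex and 8.65 to 17.1 CPM (median 12.4) in ovary. No adrenal library came near an ovarian one, and the fold was 5.61 ± 0.22 (adjusted p = 6.55e-07). Over all features tested, 5.96% had every adrenal library above every ovarian one and 8.71% had the reverse. CYP11A1, the enzyme that commits cholesterol to steroids, ranged over 407 to 749.5 CPM (median 523) and 0 to 5.04 CPM (median 2.56) in the same order, with a fold of 8.11 ± 0.47 (adjusted p = 3.56e-06). Its 2 electron carriers were higher in adrenal cortex too. FDX1 was at 32.8 to 78.7 CPM (median 50.8) against 0.208 to 1.36 CPM (median 0.444), a fold of 6.63 ± 0.39 (adjusted p = 3.56e-06). FDXR was at 63 to 83.5 CPM (median 71.1) against 0.625 to 2.62 CPM (median 2.22), a fold of 5.56 ± 0.28 (adjusted p = 1.65e-06). An overlapping lncRNA feature named after the former, FDX1-OT1, was at 34.0 CPM on average in each organ.

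The next enzymes of the route differed as much. 3BHSD, the goat entry for 3-beta-hydroxysteroid dehydrogenase, which makes progesterone from pregnenolone, ranged over 795 to 1327 CPM (median 1040) in adrenal cortex and 5.95 to 16.9 CPM (median 11.5) in ovary. The fold of 3BHSD was 6.95 ± 0.26 (adjusted p = 6.55e-07). CYP17A1, which opens the way to cortisol and to androgens, ranged over 81.6 to 168 CPM (median 119) and 0 to 1.44 CPM (median 0.665). The fold of CYP17A1 was 7.8 ± 0.49 (adjusted p = 4.54e-06). It was at 0 in the ovary libraries of goats 64 and 73. NR5A1 was at 19.8, 52.2 and 32.9 CPM in the adrenal cortex of the lactating goats and 17.1, 25.4 and 27.6 in that of the dry goats. Its fold was 3.94 ± 0.61 (adjusted p = 0.00117) over all goats and 2.84 ± 0.32 (adjusted p = 5.6e-05) in the lactating ones, whose ovaries hold the gene. TSPO, the mitochondrial outer membrane protein long linked to cholesterol transport, was the 1 member called the other way. It ranged over 0 to 2.01 CPM (median 1.59) in adrenal cortex and 4.38 to 15.8 CPM (median 8.89) in ovary, with a fold of -2.66 ± 0.59 (adjusted p = 0.00826). Its call was lost with the dry goats alone. None of the genes of this route that were called higher in adrenal cortex lost the call in any setting run.

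**Figure D3:**
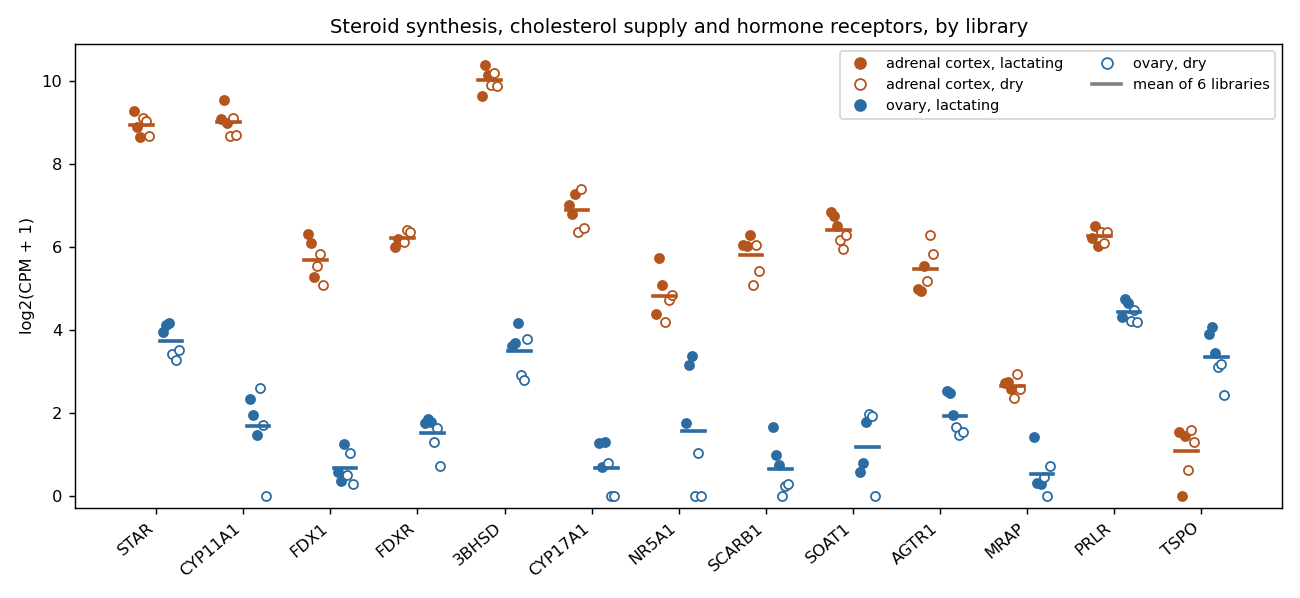
Values of 13 genes in the 12 libraries as log2(CPM + 1), with the same colours and symbols (adrenal cortex orange, ovary blue, lactating filled, dry open, bar at the mean on this scale). For 12 genes every adrenal library lies above every ovarian one, an order held by 5.96% of all features tested, from PRLR (63.8 to 90.1 against 17.2 to 25.5 CPM) to STAR, and TSPO has the reverse order.

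Across the atlas, adrenal cortex had the highest and adrenal medulla the second highest mean of the 33 tissues for STAR, CYP11A1, FDX1, FDXR, 3BHSD, CYP17A1 and NR5A1. The medulla libraries held 334 ± 220.1 CPM (SD, n = 6) of CYP11A1 against 528 ± 124 CPM in cortex. Chromaffin sums, given above, did not part the 2 adrenal labels in every goat, and the makeup of the medulla pieces was not tested. The ovary lay far below both adrenal tissues and above or below the median tissue, depending on the gene. Its mean NR5A1 of 3.45 ± 4.14 CPM ranked 4 of 33 beside a median tissue of 0.0445 CPM, a mean that came mostly from the lactating goats. Its mean FDXR of 1.92 ± 0.757 CPM also ranked 4, beside 1.05 CPM, its mean CYP11A1 of 2.65 ± 1.77 CPM ranked 6 beside 0.234 CPM, and its mean FDX1 of 0.629 ± 0.462 CPM ranked 14 beside 0.438 CPM. Its mean STAR of 12.8 ± 3.6 CPM ranked 8 beside 10.3 CPM. Its mean 3BHSD of 10.8 ± 4.09 CPM ranked 20 beside 11.9 CPM, and its mean CYP17A1 of 0.699 ± 0.642 CPM ranked 25 beside 1.26 CPM. Over the 33 tissue means of log2(CPM + 1), the genes most like CYP11A1 were DEFB112, a beta-defensin gene (Pearson r = 0.952), STAR (0.938), GML (0.936), 3BHSD (0.932) and FDXR (0.920). Those most like STAR were 3BHSD (0.970), CYP11A1 (0.938), CYP17A1 (0.927), GML (0.925) and DEFB112 (0.913). These r are descriptions, and the 2 adrenal tissues, with the highest means of CYP11A1 and STAR, come from the same gland. GML ranged over 4.75 to 9.25 CPM (median 6.77) in adrenal cortex and was at 0 in all 6 ovaries, which makes it at least 61.2-fold higher in adrenal cortex (adjusted p = 0.00169). DEFB112 ranged over 2.91 to 12.1 CPM (median 6) against 0 to 1.04 CPM (median 0.109). The fold of DEFB112 was 4.42 ± 0.87 (adjusted p = 0.00454).

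**Figure D4:**
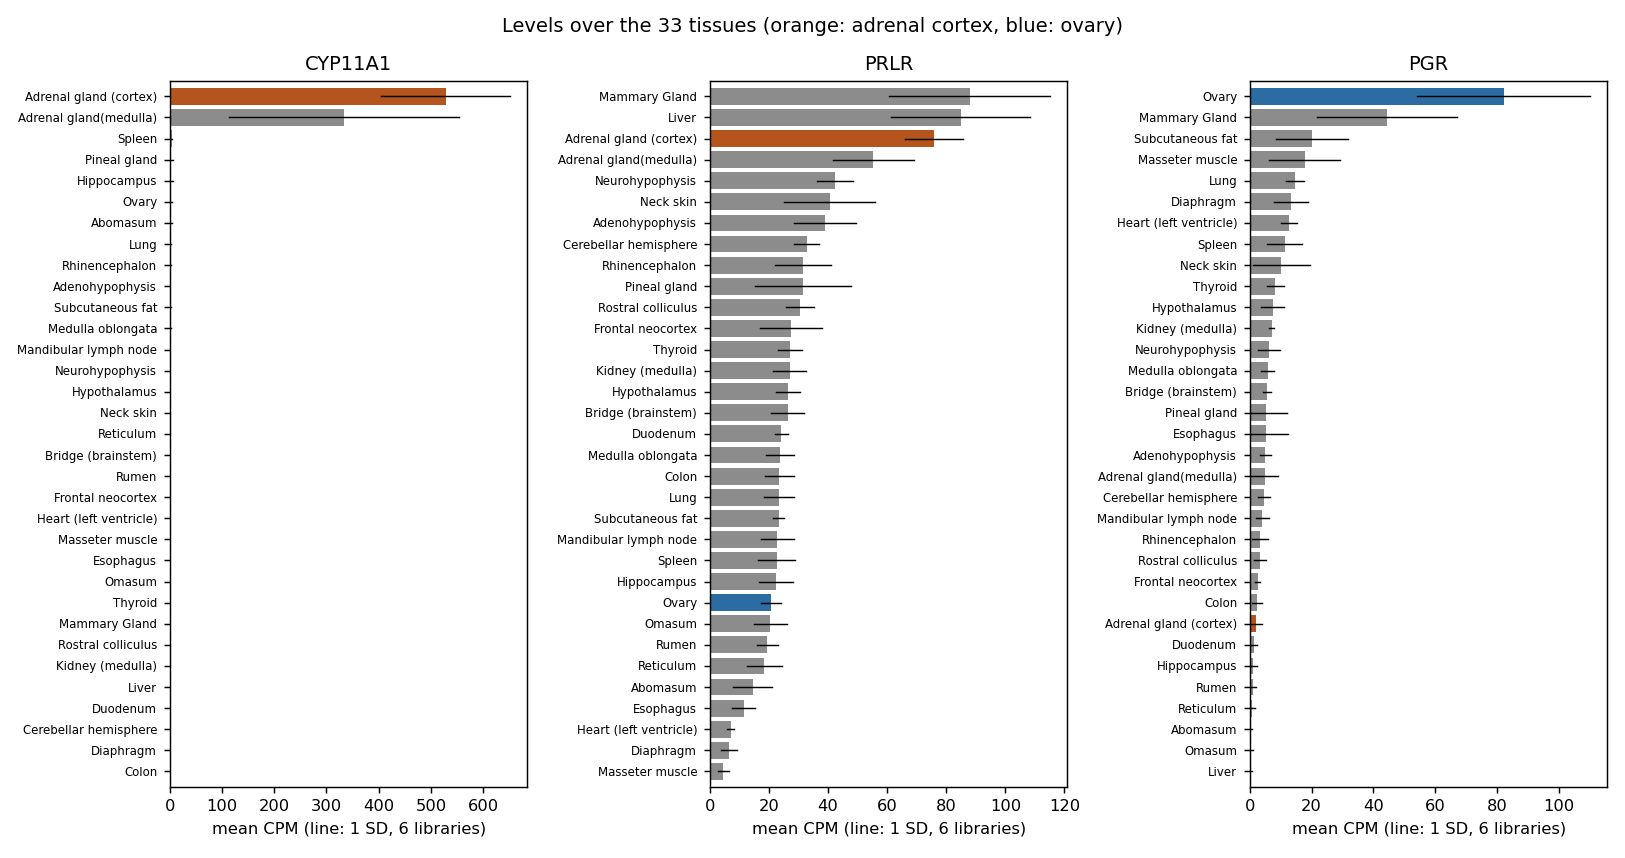
Mean CPM of CYP11A1, PRLR and PGR in each of the 33 tissues with 1 SD over 6 libraries, adrenal cortex in orange and ovary in blue. CYP11A1 is high in the 2 adrenal tissues (528 and 334 CPM), PRLR ranks 3 of 33 in adrenal cortex, and PGR is highest in ovary.

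The enzymes that finish the corticosteroids could be followed only in part. Members of the CYP21 and CYP11B families, which make the last hydroxylations, were matched by name to no feature and are not reported. Of 6 matched members of the corticosteroid list 5 were tested and none was called by edgeR or DESeq2, with 1 at an unadjusted p under 0.05 and a median of -0.16, while 1 of 5 was called higher in ovary with the lactating goats alone. HSD11B1, which regenerates active cortisol from cortisone, was at 15.4, 7.4 and 10.1 CPM in the lactating ovaries and 3.54, 1.21 and 2.15 in the adrenal cortex of the same goats. Its fold was -0.79 ± 0.53 (adjusted p = 0.288) over all goats and of -1.9 ± 0.45 (adjusted p = 0.00841) in the lactating ones, where it was the 1 called. AKR1B1, an aldose reductase of steroid-making tissues, had a fold of -1.17 ± 0.5 (adjusted p = 0.107). A feature with no gene name, LOC102188238, singled out after its values were seen, lies beside GML in the RefSeq annotation. It ranged over 215 to 708 CPM (median 491) in adrenal cortex and was at 0 in all 6 ovaries, at least 4127-fold higher in adrenal cortex (adjusted p = 1.02e-05).

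The aromatase of oestrogen synthesis was close to the limit of detection. This gene, CYP19A1, was at 0, 6.83 and 0.544 CPM in the ovaries of goats 2, 3 and 6 and at 0, 0 and 1.92 in those of goats 54, 64 and 73, and it did not pass the filter. The ovary had the highest mean of it among the 33 tissues (1.55 CPM), a rank that rests on goat 3, since without that library the ovarian mean was 0.492 CPM and ranked 12. Of 7 tested members of the oestrogen and progesterone list, 2 were called and both were higher in adrenal cortex, and both were also called with the lactating goats alone, of 6 tested. Of all genes outside the lncRNA annotation 18.9% were called higher in adrenal cortex. HSD17B12, an enzyme of fatty acid elongation that also reduces oestrone, ranged over 13.1 to 22.5 CPM (median 18.4) and 3.06 to 7.78 CPM (median 5.66) in ovary. The fold of HSD17B12 was 2.09 ± 0.27 (adjusted p = 0.000435). HSD17B7, which works in cholesterol synthesis as well as on oestrone, ranged over 4.09 to 13.3 CPM (median 7.98) and 0.474 to 2.52 CPM (median 1.07). The fold of HSD17B7 was 3.01 ± 0.47 (adjusted p = 0.00126).

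Genes of the peptide hormone receptor list were called in both directions. Of 15 tested peptide hormone receptors and accessory genes 7 were called higher in adrenal cortex and 2 higher in ovary, with the same counts of 14 in the lactating goats. Outside the lncRNA annotation 18.9% and 9.61% of all genes were called in these directions. MC2R, the ACTH receptor, ranged over 1 to 2.38 CPM (median 1.44) in adrenal cortex and was at 0 in all ovaries, at least 13.3-fold higher in adrenal cortex. Its counts were too low for the filter and it was not tested. MRAP, the accessory protein without which MC2R does not reach the membrane, ranged over 4.09 to 6.58 CPM (median 5.28) and 0 to 1.66 CPM (median 0.299). The fold of MRAP was 3.88 ± 0.65 (adjusted p = 0.00191). Its relative MRAP2 had the reverse pattern. It was at 0 in all adrenal libraries and at 1.04 to 7.35 CPM in ovary, at least 32.2-fold higher there (adjusted p = 0.0141). AGTR1, the angiotensin receptor that drives aldosterone, ranged over 29.7 to 77.5 CPM (median 40.3) against 1.73 to 4.74 CPM (median 2.5). The fold of AGTR1 was 4.21 ± 0.36 (adjusted p = 3.05e-05). AVPR1A, the vasopressin receptor, ranged over 9.78 to 24.3 CPM (median 16.1) and was at 0 in 5 of 6 ovaries. The fold of AVPR1A was 6.67 ± 0.66 (adjusted p = 8.18e-05).

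PRLR, the receptor of prolactin, ranged over 63.8 to 90.1 CPM (median 77) in adrenal cortex and 17.2 to 25.5 CPM (median 20.1) in ovary. The fold of PRLR was 2.18 ± 0.17 (adjusted p = 1.91e-05). The adrenal level ranked 3 of 33 tissues, after mammary gland (88.0 CPM) and liver (84.9 CPM), with SDs over 6 libraries that overlap among these 3. The growth hormone receptor GHR ranged over 5.41 to 12.8 CPM (median 9.15) and 0.237 to 6.34 CPM (median 1.75). The fold of GHR was 2.37 ± 0.47 (adjusted p = 0.0048). NPR3, the clearance receptor of natriuretic peptides, was uneven within the adrenal cortex (38.3, 54 and 12.5 CPM in goats 2, 3 and 6, 8.36, 1.83 and 18.7 in goats 54, 64 and 73). It ranged over 0 to 2.84 CPM (median 0.237) in ovary. The fold of NPR3 was 5.55 ± 0.74 (adjusted p = 0.000499). NPR1, the signalling receptor for the same peptides, was called over all goats at 2.53 ± 0.67 (adjusted p = 0.0181), but not without goat 3, without goat 6 or with the dry goats alone. VIPR2, a receptor of vasoactive intestinal peptide, was higher in ovary, with 3.56, 0.954 and 0 CPM in the lactating and 11.9, 5.02 and 14.2 in the dry goats. The fold of VIPR2 was -5.43 ± 0.98 (adjusted p = 0.00359).

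The gonadotropin receptors were scarcely counted. FSHR was at 0.237, 3.34 and 0.874 CPM in the ovaries of goats 2, 3 and 6 and at 0 in those of the dry goats, and LHCGR at 0, 2.15 and 0.656 CPM (lactating) and 0, 0.173 and 0 CPM (dry). PTGFR, through which prostaglandin F2-alpha ends the life of the corpus luteum, was at 17.4, 21 and 16.9 CPM in the lactating ovaries and 2.04, 6.87 and 2.06 in the dry ones. It had a fold of -1.42 ± 0.69 (adjusted p = 0.153) over all goats, of -3.15 ± 0.41 (adjusted p = 0.000162) with the lactating goats alone and of -2.34 ± 0.64 (adjusted p = 0.0261) without goats 54 and 64. The oxytocin receptor OXTR was at 15.8 to 27.2 CPM (median 20.3) in ovary and 10.2 to 19.4 CPM (median 12.6) in adrenal cortex and was not called. The fold of OXTR was -0.31 ± 0.21 (adjusted p = 0.281).

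Of 8 tested steroid hormone receptors 2 were called higher in ovary and 1 higher in adrenal cortex (2 and 0 of 8 in the lactating goats). The shares of all genes outside the lncRNA annotation were 9.61% and 18.9%. PGR, the progesterone receptor, ranged over 0 to 4.54 CPM (median 2.02) in adrenal cortex and 54.3 to 126 CPM (median 74.3) in ovary. The fold of PGR was -5.05 ± 0.5 (adjusted p = 8.29e-05). It was high in all 6 libraries labelled ovary, including the dry ones with at most 0.834 CPM of FOXL2, and the ovarian mean of 82.2 ± 28 CPM was the highest of the 33 tissues, ahead of the mammary gland at 44.4 CPM. NR3C2, the mineralocorticoid receptor, was at 15.7, 50.8 and 49 CPM in the lactating ovaries, 10.1, 7.96 and 18.4 in the dry ones and 2.67 to 6.24 CPM (median 3.51) in adrenal cortex. The fold of NR3C2 was -2.14 ± 0.32 (adjusted p = 0.00107). PGRMC1, a membrane-bound haem protein of the progesterone receptor component family, was called higher in adrenal cortex. The fold of PGRMC1 was 0.81 ± 0.23 (adjusted p = 0.0261). That call was lost with the lactating goats alone, without goats 54 and 64, with lncRNA features left out, with total counts alone and without any of goats 2, 3, 54 and 73. ESR1, the main oestrogen receptor, was at 15.5 to 28.4 CPM (median 23.8) against 6.67 to 16.4 CPM (median 12.8), close to but not past the threshold. The fold of ESR1 was -0.58 ± 0.2 (adjusted p = 0.0508).

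Of 21 tested transcription factors of the adrenal gland and gonad 8 were called higher in ovary and 3 higher in adrenal cortex, against 9.61% and 18.9% of all genes outside the lncRNA annotation. With the lactating goats alone it was 8 and 2 of 20. WT1, which the mesothelium and the early gonad need, was at 9.49, 19.3 and 9.84 CPM in the lactating ovaries, 39.6, 29.9 and 1.25 in the dry ones and 0 to 0.215 CPM in adrenal cortex. The fold of WT1 was -7.99 ± 0.63 (adjusted p = 1.9e-05). Its 2 highest values belong to the goats whose libraries hold cilia genes. EMX2, a factor of the urogenital ridge, was at 0.72 to 7.63 CPM (median 3.92) in ovary and 0 in all adrenal libraries, at least 44.2-fold higher in ovary (adjusted p = 0.00806). FOXL2 had a fold of -5.41 ± 1.16 (adjusted p = 0.00829), lost without goat 3, and TCF21 one of -4.41 ± 0.91 (adjusted p = 0.00587). NR2F2, a nuclear receptor of stromal and theca cells, had one of -2.45 ± 0.33 (adjusted p = 0.00054). BNC2, a zinc finger factor of mesenchyme, had one of -2.41 ± 0.41 (adjusted p = 0.00197). GATA4 was called higher in ovary with the lactating goats alone, at -4.48 ± 0.78 (adjusted p = 0.00131), and not over all goats. The fold of GATA4 was -1.57 ± 1.23 (adjusted p = 0.371). GATA6, which both organs use, ranged over 12.4 to 23.6 CPM (median 14.4) in adrenal cortex and 0 to 17.9 CPM (median 10.5) in ovary. The fold of GATA6 was 1.29 ± 0.57 (adjusted p = 0.12). CREM, a factor that answers cyclic AMP, was higher in adrenal cortex, with 50.1, 27.1 and 15.1 CPM in the lactating and 4.98, 1.64 and 1.45 in the dry goats. The fold of CREM was 3.99 ± 0.66 (adjusted p = 0.00178).

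Little of the oocyte was seen in the libraries labelled ovary. Of 24 matched oocyte genes 4 passed the filter and none was called over all goats by edgeR or DESeq2, with 0 of 4 at an unadjusted p under 0.05. With the lactating goats alone 1 of 4 was called higher in ovary. ZP4, BMP15, FIGLA, OOSP2, DAZL, NLRP2, MOS, SOHLH1, KHDC3L, BTG4 and ASTL were at 0 in all 6 ovary libraries, where a count of 0 allows up to 0.114 CPM. The 4 tested members were present in adrenal cortex as well. ZP2, an egg coat gene that overlaps ANKS4B, ranged over 1.21 to 22.4 CPM (median 3.71) in adrenal cortex and 4.38 to 18.7 CPM (median 14.1) in ovary. The fold of ZP2 was -0.93 ± 0.42 (adjusted p = 0.127). ZAR1, which overlaps FRYL, had a fold of -0.44 ± 0.29 (adjusted p = 0.282). SYCP3, which overlaps CHPT1, had one of 0.16 ± 0.28 (adjusted p = 0.711), and NLRP5 one of -0.85 ± 0.56 (adjusted p = 0.285). The counts of ZP2, ZAR1 and SYCP3 cannot be told apart with certainty from those of the genes they overlap. Of 11 tested granulosa and theca markers 4 were called higher in ovary and 1 higher in adrenal cortex (4 and 1 of 9 in the lactating goats). Of all genes outside the lncRNA annotation 9.61% and 18.9% were called in these directions. The summed level of the 18 matched granulosa and theca markers was 53.8 to 109.6 CPM in ovary and 27.3 to 40.4 CPM in adrenal cortex. GATM, the first enzyme of creatine synthesis, ranged over 1.67 to 12.4 CPM (median 6.27) in ovary and 0 to 1.83 CPM (median 0.487) in adrenal cortex. The fold of GATM was -3.4 ± 0.66 (adjusted p = 0.00422). INHA, the alpha subunit of inhibin, was the member higher in adrenal cortex, at 3.45 to 10.7 CPM (median 7.09) against 0 to 1.67 CPM (median 0.119). The fold of INHA was 4.5 ± 0.75 (adjusted p = 0.00182). INHBA, a beta subunit of inhibin and activin, was called higher in ovary with the lactating goats alone, at -1.4 ± 0.44 (adjusted p = 0.0321), and not over all goats. The fold of INHBA was -0.64 ± 0.39 (adjusted p = 0.246).

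In the activin and bone morphogenetic protein group, 4 of 16 tested members were called higher in adrenal cortex and 1 higher in ovary, where the lactating goats alone gave 1 and 2 of 13. The ovarian one was BMPR1B, the receptor in which fecundity alleles of sheep lie, at 4.61 to 32 CPM (median 12.4) against 0.208 to 2.49 CPM (median 1.28) in adrenal cortex. The fold of BMPR1B was -3.39 ± 0.37 (adjusted p = 0.000148). Wnt and R-spondin genes gave 2 calls higher in adrenal cortex and 3 higher in ovary of 20 tested (4 and 4 of 18 in the lactating goats). Among all genes outside the lncRNA annotation 18.9% and 9.61% were called in these directions. RSPO3, a secreted booster of Wnt signalling, was at 19.2, 8.83 and 10.9 CPM in the lactating ovaries, 0, 2.42 and 5.84 in the dry ones and 0 to 0.86 CPM in adrenal cortex. The fold of RSPO3 was -5.54 ± 0.87 (adjusted p = 0.00174). WNT4, which both gonad and cortex use, was at 14.2, 17.6 and 13.1 CPM (lactating) and 1.44, 3.98 and 2.08 CPM (dry) in ovary. The fold of WNT4 was -2.88 ± 0.54 (adjusted p = 0.00329). WNT5A, a Wnt of mesenchyme, had a fold of -3.57 ± 0.83 (adjusted p = 0.0105). LEF1, a nuclear partner of beta-catenin, was higher in adrenal cortex, 4.8 to 10.3 CPM (median 7.86) against 0.346 to 2.92 CPM (median 2.04). The fold of LEF1 was 2.57 ± 0.47 (adjusted p = 0.00307). CTNNB1, beta-catenin itself, was not called over all goats, at 0.48 ± 0.17 (adjusted p = 0.0574), but was with the lactating goats alone, at 0.75 ± 0.17 (adjusted p = 0.0073).

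Cholesterol synthesis was higher in adrenal cortex nearly throughout. Of 18 tested members 17 were called higher in adrenal cortex and none was called lower, against 18.9% of all genes outside the lncRNA annotation, and the median was 3.15. The lactating goats alone gave 17 of 18 with a median of 3.77, the dry goats 14 of 18 with a median of 3.29, and the 4 goats other than 54 and 64 gave 16 of 18. HMGCS1, which makes the HMG-CoA that enters the pathway, ranged over 93.7 to 292 CPM (median 127) in adrenal cortex and 2.5 to 6.17 CPM (median 4.04) in ovary. The fold of HMGCS1 was 5.49 ± 0.29 (adjusted p = 2.37e-06). MSMO1, a sterol demethylase, was at 115, 167 and 153 CPM (lactating) and 129, 137 and 125 CPM (dry) in adrenal cortex, and at 0.237, 2.86 and 0.437 CPM (lactating) and 7.92, 4.5 and 7.3 CPM (dry) in the ovaries. The fold of MSMO1 was 5.74 ± 0.57 (adjusted p = 8e-05). DHCR7, an enzyme of the last steps, was as far apart, at 36.8 to 108 CPM (median 61.5) against 0.346 to 2.4 CPM (median 1.91). The fold of DHCR7 was 5.85 ± 0.35 (adjusted p = 3.56e-06). The ovary ranked 31 of 33 tissues in HMGCS1.

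**Figure D5:**
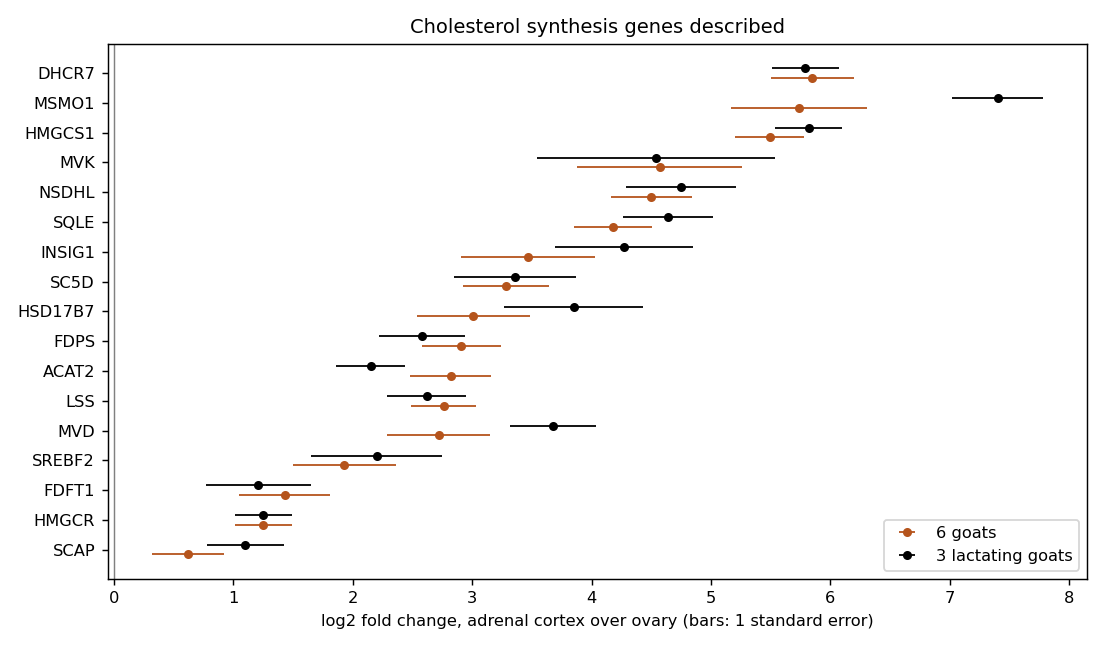
Log2 fold change of adrenal cortex over ovary with 1 standard error for 17 of the 18 tested cholesterol synthesis genes, over 6 goats (orange) and over the 3 lactating goats (black). All 17 lie above 0, DHCR7 highest over 6 goats at 5.85, and MSMO1 is further out in the lactating goats.

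Genes of cholesterol uptake, storage and export were called in both directions. Of 18 tested members 8 were called higher in adrenal cortex and 4 higher in ovary (9 and 3 of 16 in the lactating goats). Beside each list of this paragraph, 18.9% and 9.61% of all genes outside the lncRNA annotation were called in these directions. SCARB1, the HDL receptor, ranged over 32.9 to 76.5 CPM (median 64.4) and 0 to 2.13 CPM (median 0.432). The fold of SCARB1 was 6.8 ± 0.41 (adjusted p = 3.56e-06). SOAT1, which stores cholesterol as esters, ranged over 61.2 to 113 CPM (median 83) and 0 to 2.88 CPM (median 1.56). The fold of SOAT1 was 6.19 ± 0.56 (adjusted p = 4.36e-05). Both genes had their highest tissue mean of the 33 in adrenal cortex. APOA1, the main HDL protein, was higher in ovary, with 10.2, 9.3 and 10.3 CPM in the lactating goats and 78.8, 93.4 and 2.08 in goats 54, 64 and 73. The fold of APOA1 was -5.57 ± 0.8 (adjusted p = 0.000771). Most of its level came from the 2 libraries with cilia genes. Without those goats its fold was -3.73 ± 0.78 (adjusted p = 0.00787). Of 11 tested luteal markers, a list that shares STAR, CYP11A1, 3BHSD and SCARB1, among others, with those above, 9 were called higher in adrenal cortex and none higher in ovary (10 and 1 in the lactating goats). The summed level of the 14 matched members was 1929 to 2825 CPM in adrenal cortex and 52.1 to 90.2 CPM in ovary, and the luteal hormone gene OXT was at 0 in all 12 libraries.

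Genes that act downstream of ACTH gave 10 calls higher in adrenal cortex and none higher in ovary of 18 tested (9 and 0 of 17 in the lactating goats). PRKAR2B, a regulatory subunit of protein kinase A, ranged over 40.6 to 71.3 CPM (median 53.5) and 2.5 to 15.5 CPM (median 7.11). The fold of PRKAR2B was 3.2 ± 0.32 (adjusted p = 8.55e-05). ACSL4, which handles arachidonic acid, ranged over 23 to 32 CPM (median 28.9) and 2.55 to 12.3 CPM (median 3.75). The fold of ACSL4 was 2.98 ± 0.36 (adjusted p = 0.00025). PDE2A, a phosphodiesterase, was called too. The fold of PDE2A was 3.53 ± 0.73 (adjusted p = 0.00596). But 2 antisense features named after it were 59.8 and 14.0 CPM in ovary against 5.55 and 1.25 CPM in adrenal cortex, and it overlaps other genes, so its counts are uncertain. Zona glomerulosa and capsule markers gave 6 calls higher in adrenal cortex and 2 higher in ovary of 12 tested (6 and 5 of 11 in the lactating goats). KCNJ5, the potassium channel of aldosterone-making cells, ranged over 10.8 to 35.8 CPM (median 18.7) and was at 0 in 4 of 6 ovaries. The fold of KCNJ5 was 7.89 ± 0.47 (adjusted p = 3.56e-06). Of 12 tested immediate early genes 3 were called higher in adrenal cortex and 1 higher in ovary (4 and 1 of 9 in the lactating goats). For all genes outside the lncRNA annotation, beside each list of this paragraph, the shares were 18.9% and 9.61%. FOSL2, an AP-1 factor, ranged over 57.6 to 135 CPM (median 79.8) in adrenal cortex and 4.67 to 31.2 CPM (median 18.7) in ovary. The fold of FOSL2 was 2.72 ± 0.41 (adjusted p = 0.00112). ZFP36, which speeds mRNA decay, was higher in ovary, 9.73, 7.16 and 16.6 CPM in the lactating and 2.88, 1.38 and 1.46 in the dry goats. The fold of ZFP36 was -2.86 ± 0.59 (adjusted p = 0.00575). JUN was at 44.1, 54.5 and 43.2 CPM against 9.49, 12.2 and 19.4 CPM in adrenal cortex and ovary of the lactating goats, a fold of 2.21 ± 0.28 (adjusted p = 0.000141). In the dry goats it was at 11.4, 21 and 20.7 CPM in adrenal cortex and 46.4, 40.6 and 14.6 CPM in ovary, lower in adrenal cortex in goats 54 and 64 and not in goat 73, and was not called (-0.57 ± 0.45, adjusted p = 0.443). The difference between the states was 2.8 ± 0.59 (adjusted p = 0.0355).

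Antioxidant defence genes gave 15 calls of 24 tested, all higher in adrenal cortex, with a median of 1.42 (12 of 22 in the lactating goats). Beside each list of this paragraph, 18.9% of all genes outside the lncRNA annotation were called in this direction. MGST1, a membrane glutathione transferase, ranged over 23.2 to 34.7 CPM (median 26.5) and 0 to 2.52 CPM (median 0.671). The fold of MGST1 was 5.27 ± 0.55 (adjusted p = 0.000113). GPX4, which reduces lipid peroxides, ranged over 47.2 to 82.6 CPM (median 59.1) and 3.13 to 8.06 CPM (median 5.98). The fold of GPX4 was 3.73 ± 0.19 (adjusted p = 2.2e-06). SOD2, the mitochondrial superoxide dismutase, ranged over 27.2 to 73.8 CPM (median 41.1) and 2.29 to 5.25 CPM (median 4.16). The fold of SOD2 was 3.72 ± 0.25 (adjusted p = 6.32e-06). SLC23A2, a vitamin C transporter, ranged over 39 to 65.1 CPM (median 57.8) and 1.67 to 8.82 CPM (median 6.54). The fold of SLC23A2 was 3.63 ± 0.25 (adjusted p = 7.92e-06). All 13 mitochondrially encoded genes were called higher in adrenal cortex, with a median of 2.11, and again all 13 in the lactating goats. Their summed level was 2464 to 3688 CPM in adrenal cortex and 581 to 982 CPM in ovary. COX2, a subunit of cytochrome oxidase, ranged over 266 to 388 CPM (median 364) and 35.1 to 58.6 CPM (median 49.6). The fold of COX2 was 3.2 ± 0.15 (adjusted p = 1.65e-06). COX3, of the same complex, had a fold of 2.65 ± 0.2 (adjusted p = 1.58e-05). ATP6, a subunit of ATP synthase, had one of 2.59 ± 0.2 (adjusted p = 1.67e-05).

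The calls among fibroblast and smooth muscle genes were higher in ovary over all goats. Of 19 tested fibroblast and matrix markers 14 were called higher in ovary and none higher in adrenal cortex (13 and 2 of 18 in the lactating goats). Of all genes outside the lncRNA annotation 9.61% were called higher in ovary and 18.9% higher in adrenal cortex. The summed level of the fibroblast and matrix markers in ovary was 960.4 to 1131 CPM in the lactating goats, 341 and 342 CPM in goats 54 and 64 and 1027 CPM in goat 73, and 78.8 to 242 CPM in adrenal cortex. COL1A1 was at 33.2, 29.8 and 41.3 CPM in the lactating and 6.84, 4.5 and 59.4 in the dry ovaries, and at 0 to 2.81 CPM (median 0.49) in adrenal cortex. The fold of COL1A1 was -4.75 ± 0.62 (adjusted p = 0.000465). COL1A2, its partner chain, had a fold of -3.94 ± 0.54 (adjusted p = 0.000593), and DCN, a small collagen-binding proteoglycan, one of -3.68 ± 0.49 (adjusted p = 0.000482). Of 13 tested smooth muscle markers 6 were called higher in ovary and none higher in adrenal cortex (9 and 0 in the lactating goats). ACTA2 ranged over 19.4 to 126 CPM (median 58.1) against 1.96 to 21.2 CPM (median 7.44). The fold of ACTA2 was -2.56 ± 0.44 (adjusted p = 0.00212). MYLK, the myosin light chain kinase, ranged over 10.6 to 59.2 CPM (median 50.2) against 1.96 to 9.24 CPM (median 4.34). The fold of MYLK was -2.6 ± 0.35 (adjusted p = 0.000545). ACTG2, the visceral smooth muscle actin, ranged over 2.25 to 29.8 CPM (median 8.68) against 0 to 0.832 CPM (median 0). The fold of ACTG2 was -5.21 ± 0.76 (adjusted p = 0.000905). The call of ACTA2 was lost with the dry goats alone.

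Of 15 tested endothelial markers 4 were called higher in adrenal cortex and 1 higher in ovary (4 and 3 of 13 in the lactating goats). Beside this and the next lists stand 18.9% and 9.61% of all genes outside the lncRNA annotation. KDR, the main VEGF receptor, ranged over 10.2 to 20.2 CPM (median 14.4) and 4.27 to 8.28 CPM (median 6.97). The fold of KDR was 1.47 ± 0.29 (adjusted p = 0.00427). PECAM1, an adhesion protein of endothelium, ranged over 4.57 to 14.8 CPM (median 6.85) and 1.04 to 9.62 CPM (median 2.73). The fold of PECAM1 was 1.64 ± 0.31 (adjusted p = 0.00383). PROX1, a factor of lymphatic endothelium, ranged over 3.27 to 9.04 CPM (median 5.5) and 0.208 to 2.52 CPM (median 1.37). The fold of PROX1 was 2.42 ± 0.42 (adjusted p = 0.00238). The calls of KDR and PROX1 were lost with the dry goats alone. The summed level of all 18 markers overlapped between the organs, 72.0 to 125 CPM against 62.3 to 128 CPM. Leukocyte markers gave 1 call higher in adrenal cortex and 2 higher in ovary of 10 tested (3 and 1 of 8 in the lactating goats). CD8A, the co-receptor of cytotoxic T cells, was the former, at 3.54 to 18.6 CPM (median 11.3) against 0.36 to 2.59 CPM (median 1.47). The fold of CD8A was 3.28 ± 0.47 (adjusted p = 0.00074). It does not stand for the list. The summed level of the 20 matched leukocyte markers was 36.1 to 63.4 CPM (median 57.9) in adrenal cortex and 44.1 to 110 CPM (median 89.5) in ovary. Of 6 tested adipocyte markers 2 were called and both were higher in ovary (2 of 4 in the lactating goats), among them GPD1, an enzyme that links glycolysis to glycerolipids. The fold of GPD1 was -1.65 ± 0.21 (adjusted p = 0.000344). Of 10 tested epithelium and oviduct markers 2 were called higher in ovary over all goats and 8 of 10 with the dry goats alone, while 3 were tested and none was called with the lactating goats alone. KRT7, a keratin of simple epithelia, was at 1.19 to 8.48 CPM (median 2.23) in ovary and 0 in all adrenal libraries, at least 35.6-fold higher in ovary (adjusted p = 0.0116). DNAH5 had a fold of -6.58 ± 0.87 (adjusted p = 0.00108). Neither was called without goats 54 and 64, and DNAH5 was also not called by DESeq2 over all goats. Cell cycle genes gave 2 calls higher in adrenal cortex and 1 higher in ovary of 16 tested (2 and 1 of 12 in the lactating goats). Of 3 tested red cell markers none was called by edgeR, with 2 at an unadjusted p under 0.05 and 1 called by DESeq2, and none of 3 was called in the lactating goats. UPK1B, a mesothelial and urothelial plaque protein, was at 16.4, 22.7 and 26 CPM (lactating) and 57.9, 51 and 4.38 CPM (dry) in ovary, and not called. The fold of UPK1B was -1.32 ± 0.48 (adjusted p = 0.063).

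Of 14 tested chromaffin markers 8 were called higher in adrenal cortex and none higher in ovary, with a median of 3.53. In the lactating goats alone 3 of 8 were called, with a median of 0.49. The summed chromaffin levels are given above, and their part in these values was not tested. CHGB, a granin of secretory granules, was at 34.9, 29.9 and 1.29 CPM in the adrenal cortex of goats 2, 3 and 6 and 231, 61.9 and 86.5 in goats 54, 64 and 73. It was at 0 to 0.474 CPM in ovary. The fold of CHGB was 9.45 ± 0.56 (adjusted p = 3.56e-06). SCG2, a second granin, was at 7.9, 22.3 and 0.43 CPM (lactating) and 30.6, 12.2 and 13.6 CPM (dry) in the same libraries. The fold of SCG2 was 7.31 ± 0.62 (adjusted p = 3.04e-05). Its antisense feature SCG2-AS1 averaged 614 CPM in adrenal cortex and 10.9 CPM in ovary, so that its strand is uncertain. TH, the first enzyme of catecholamine synthesis, was at 3.95, 8.84 and 0.86 CPM (lactating) and 19.6, 5.48 and 12.9 CPM (dry). The fold of TH was 6.04 ± 0.74 (adjusted p = 0.000289). The order over goats was shared by these 3 genes at its ends, goat 54 highest and goat 6 lowest. Of 7 tested nerve and glia markers 2 were called higher in adrenal cortex (2 of 4 in the lactating goats). Of the 37 matched HOX genes 13 were tested and 5 called, all higher in adrenal cortex (4 of 7 in the lactating goats). Beside each list of this paragraph, 18.9% of all genes outside the lncRNA annotation were called in this direction. Some HOX genes that were not called had the higher mean in ovary, at low CPM. HOXA5 was at 36.2, 17.9 and 7.09 CPM (lactating) and 7.29, 6.21 and 10.5 CPM (dry) in adrenal cortex and at 0.239 to 3.98 CPM (median 0.854) in ovary. The fold of HOXA5 was 3.38 ± 0.71 (adjusted p = 0.00622). HOXA2 had a fold of 2.79 ± 0.64 (adjusted p = 0.00952) and HOXA3 one of 1.97 ± 0.47 (adjusted p = 0.0119). The 3 calls were lost with the dry goats alone. HOXC8 was at 13.8, 6.68 and 5.66 CPM in the lactating ovaries and 0, 0.173 and 0 in the dry ones, against 9.68 to 23.9 CPM (median 14.3) in adrenal cortex. Its fold was 3.02 ± 0.92 (adjusted p = 0.0337) over all goats and 1.17 ± 0.43 (adjusted p = 0.0595) with the lactating goats alone. It also lost its call without any of goats 6, 54, 64 and 73.

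Over all annotated genes, in and outside the lists, the 10 with the largest folds and no overlap between organs were, for adrenal cortex, CHGB, CYP11A1, KCNJ5, CYP17A1, CALN1, RAB3C, SCG2, AIF1L, CXCL14 and 3BHSD. CALN1, a calcium-binding protein of the calneuron family, ranged over 14.6 to 53.8 CPM (median 30.1) and 0 to 0.72 CPM (median 0.191). The fold of CALN1 was 7.45 ± 0.49 (adjusted p = 6.17e-06). An antisense feature, CALN1-AS1, was at 643 and 152 CPM on average in adrenal cortex and ovary. RAB3C, a small GTPase of secretory vesicles, ranged over 43.6 to 89 CPM (median 78.9) and 0 to 1.38 CPM (median 0.357). The fold of RAB3C was 7.44 ± 0.48 (adjusted p = 5.51e-06). Its values, unlike those of the granins, were of like size in goat 6 (76.3 CPM) and goat 54 (81.4 CPM). AIF1L, an actin-binding protein, ranged over 65.3 to 93 CPM (median 81.3) and 0 to 2.5 CPM (median 0.237). The fold of AIF1L was 7.17 ± 0.6 (adjusted p = 2.69e-05). CXCL14, a chemokine, was at 36.4, 20.7 and 31.8 CPM in the adrenal cortex of lactating and 4.45, 1.83 and 3.45 in that of dry goats. The fold of CXCL14 was 7.08 ± 0.66 (adjusted p = 5.62e-05).

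For ovary the rule gave WT1, CDR1, APOA1, GJA3, DNAH11, CDCA7L, TPPP, ACTG2, PGR and ADAM12. CDR1 was at 93.2, 41.5 and 69.1 CPM in the lactating and 58.3, 59.5 and 214 in the dry ovaries against 0 to 2.85 CPM (median 1.5) in adrenal cortex. The fold of CDR1 was -5.67 ± 0.47 (adjusted p = 2.6e-05). GJA3, a gap junction protein, was at 48.4, 62.3 and 54.6 CPM in the lactating and 2.16, 1.73 and 4.38 in the dry ovaries. The fold of GJA3 was -5.51 ± 0.94 (adjusted p = 0.00207). DNAH11, an axonemal dynein, was by contrast high in the lactating ovaries too (123, 160.1 and 61.4 CPM, with 96.1, 95.3 and 18.4 CPM in the dry ones), although FOXJ1 was at 0 there. The fold of DNAH11 was -5.46 ± 0.44 (adjusted p = 2.03e-05). CDCA7L had a fold of -5.43 ± 0.63 (adjusted p = 0.000206), with an antisense feature at 360 CPM in ovary and 65.1 CPM in adrenal cortex. TPPP, a tubulin-binding protein, was at 6.17, 7.87 and 4.15 CPM in the lactating ovaries and 403, 424 and 3.96 in goats 54, 64 and 73. Its fold was -5.36 ± 1.31 (adjusted p = 0.0133) over all goats and -2.04 ± 0.78 (adjusted p = 0.0688) in the lactating ones. ADAM12, a metalloprotease, was at 6.17, 5.01 and 4.81 CPM (lactating) and 107, 118 and 11.3 CPM (dry) in the same order. The fold of ADAM12 was -4.95 ± 0.75 (adjusted p = 0.00108). Thus 3 of the 10 (APOA1, TPPP and ADAM12) had at least 78.8 CPM in goats 54 and 64 and at most 11.3 CPM in the other 4 ovaries.

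Among lncRNA features, LINC62433 ranged over 30.3 to 169.8 CPM (median 85.2) in adrenal cortex and was at 0 in all ovaries, at least 894-fold higher in adrenal cortex (adjusted p = 3.38e-05). KCNK9-IT1, an intronic feature of a potassium channel gene, was at 154, 1.81 and 50.5 CPM (lactating) and 7.47, 0.183 and 17.1 CPM (dry) in adrenal cortex and 0 in ovary. It was at least 338-fold higher in adrenal cortex (adjusted p = 0.000185), with its highest values in goats 2 and 6. LOC108635832-OT1 ranged over 38.3 to 317 CPM (median 138) against 0 to 0.656 CPM (median 0.119). The fold of LOC108635832-OT1 was 9.41 ± 0.56 (adjusted p = 3.56e-06). LINC41110 was higher in ovary, at 0.765 to 52.1 CPM (median 30.2) against 0 to 0.548 CPM (median 0.21). The fold of LINC41110 was -6.19 ± 0.58 (adjusted p = 5.91e-05). FBXL13-OT1 was at 438, 368 and 527 CPM in lactating and 86.7, 100.1 and 41.1 CPM in dry ovaries. The fold of FBXL13-OT1 was -6.13 ± 0.46 (adjusted p = 1.35e-05). TBPL1-OT1 was at 18.7, 15.2 and 16.7 CPM (lactating) and 214, 215 and 33.3 CPM (dry). The fold of TBPL1-OT1 was -5.85 ± 0.83 (adjusted p = 0.000725).

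Whether the difference between the organs itself differed between lactating and dry goats was tested as an interaction, with goat as a block. Of 21124 features 423 were called (2%). The log2 fold of adrenal cortex over ovary, sign kept, was higher in the lactating goats for 267 (1.26%) and lower for 156 (0.738%). Among the genes with the smallest p-values, RASSF4 and GDA differed mainly in the ovary libraries and C16H1orf115 and EZR in those of both organs. C16H1orf115 was at 22.1, 26.5 and 26.9 CPM (lactating) and 5.04, 4.84 and 6.25 CPM (dry) in ovary, 22.5, 35.2 and 37.4 CPM (lactating) and 71.1, 101 and 64 CPM (dry) in adrenal cortex, a difference in log2 fold (lactating minus dry) of -3.4 ± 0.36 (adjusted p = 0.00102). RASSF4, a Ras-association protein, was at 0.949, 1.43 and 1.53 CPM in lactating ovaries and 111, 115 and 1.04 in goats 54, 64 and 73, a difference of 6.46 ± 0.65 (adjusted p = 0.000854). GDA, guanine deaminase, was at 1.19, 0.716 and 1.31 CPM (lactating) and 172, 182 and 287 CPM (dry) in ovary, a difference of 9.02 ± 0.96 (adjusted p = 0.00102), and was high in all 3 dry ovaries. EZR, which ties membranes to actin in epithelia, was at 7.35, 7.87 and 4.81 CPM (lactating) and 23, 25.8 and 14 CPM (dry) in ovary and at 53.6, 77.8 and 54.2 CPM (lactating) and 23.5, 33.2 and 17.4 CPM (dry) in adrenal cortex, a difference of 3.12 ± 0.33 (adjusted p = 0.00102). Since the same 3 ovary libraries are low in FOXL2, GATA4, NR5A1 and TCF21, these differences are between the libraries as labelled, and state and sampled tissue cannot be told apart in them.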

How the data were processed

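Total RNA of 33 tissues from 6 goats was sequenced from stranded libraries (RiboPure extraction and a VAHTS kit, per the labels' protocols), and per the submitters' processing notes STAR, StringTie and edgeR were used, with no version or role stated. The genome build and the strand setting of the counting are not given in the sources used here. The authors deposited expected counts per feature for 39734 features, of which 14511 are in their lncRNA annotation, and 37.2% of the values above 0 in the 12 libraries were fractional and were rounded for the fits. The authors also deposited natural log offsets per feature and library, used only as an alternative scaling, while their CPM-named table and tau scores were not used. CPM was computed here from the counts. Names come from the files and from RefSeq (ARS1.2), whose symbols matched 23502 features.

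The organs were compared with edgeR 4.0.16 (R 4.3.3; filterByExpr with a minimum count of 10, TMM, glmQLFit and glmQLFTest, design goat plus tissue, two-sided, Benjamini-Hochberg adjustment over all features tested). The interaction of tissue with state was added to the same design. Standard errors were derived from the log2 fold change and its F statistic. The plan did not state how the filter groups libraries. Grouping by tissue and state was chosen after a trial fit had been seen, and the other groupings are given as alternatives. Both organs come from the same goats, and deviations from the organ means correlated within a goat by 0.05 to 0.18, with the own goat best for 4 of 6. Alternatives (DESeq2 1.42.0, other scalings and filters, no block, goats left out) are in the closing section. On simulated counts of 21124 features with known changes, the comparison of organs recovered 72 of 100 changes of 2 on the log2 scale and 7 of 100 of 1, and the interaction 1 of 100 and 0 of 100. In that simulation far fewer features changed than were called in the data, and its spread came from the fit without the interaction. The recovered shares are therefore not the power of these tests here.

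The comparison, its members and the gene lists were chosen with earlier results of these data known. Genes were named by a written rule: any member of the steroid, receptor, transcription factor and oocyte lists, up to 4 called and 2 uncalled members of each other list, the 10 genes and 3 lncRNA features per direction with the largest fold among those called, at 10 CPM or more and without overlap, the 5 genes with the smallest interaction p, and the 5 most like CYP11A1 or STAR with a tissue mean of at least 5 CPM. Some genes the rule admits are not reported here. FOXJ1, LOC102188238, SLC18A2 and DDC were singled out after their values were seen, and DDC is not counted among the 120 genes printed. The genes printed, 120, are fewer than the rule admits: a longer first selection was narrowed after its values and the settings in which calls were lost or signs changed had been seen, and genes with unstable or no calls were dropped more often, so the printed genes look more stable than the admitted ones. Counting error alone limits each library to a floor of 3 counts, 0.519 to 1.08 CPM. Of 120 genes named, 19 overlap another gene in RefSeq and 36 have an lncRNA feature named after them, and their counts cannot be told apart with certainty. No sequence is shown, since the reference used here holds names only.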

Additional observations from a re-analysis of the deposited data

Results flagged for a closer look

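In 15 of 211 sets of 6 libraries, 1 library stood apart from the other 5 by more than Dixon's 95% value, where chance flags about 1 in 20. In adrenal cortex goat 54 stood apart for CYP19A1 (1.45 CPM) and CHGB (231 CPM), goat 6 for NPR1 (20.4 CPM) and NR3C2 (6.24 CPM), and goat 2 for WNT4 (3.95 CPM) and KCNK9-IT1 (154 CPM). In ovary goat 3 stood apart for CYP19A1 (6.83 CPM), FSHR (3.34 CPM), LHCGR (2.15 CPM) and AVPR1A (1.43 CPM). CYP19A1, FSHR and LHCGR are granulosa or theca genes and were highest in the same library. Goat 6 stood apart in ovary for NPR3 (2.84 CPM), and goat 73 for PGRMC1 (10.6 CPM), ACSL4 (12.3 CPM), ACTG2 (29.8 CPM) and CDR1 (214 CPM).

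For 17 of the 120 genes printed, the log2 fold of adrenal cortex over ovary differed between lactating and dry goats by the interaction test (lactating minus dry). Over all 21124 features the share was 2%. GDA, RASSF4, EZR and C16H1orf115 were named for their small p in this same test, so the 17 are no independent count. The difference of signed folds was positive for GDA (9.02), TPPP (6.74), RASSF4 (6.46), EPCAM (5.78), CREM (3.54), EZR (3.12), MSMO1 (2.85), JUN (2.80), UPK1B (2.39) and SLC18A2 (1.24). It was negative for HOXC8 (-6.64), GATA4 (-5.97), LOC108635832-OT1 (-5.68), GJA3 (-5.65), PTGFR (-3.52), C16H1orf115 (-3.40) and FBXL13-OT1 (-2.43). For a gene higher in ovary, a positive value means a smaller gap between the organs in the lactating goats, as for TPPP. A negative value then means a larger gap, as for GATA4. CREM differed on the adrenal side, with 50.1, 27.1 and 15.1 CPM in the lactating and 4.98, 1.64 and 1.45 CPM in the dry goats. State and the makeup of the 3 dry ovary libraries cannot be told apart.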

How the results depend on the processing

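The count of features called between the organs, 5758, was 5946 without the goat block, 6842 with DESeq2, 5876 and 5334 with the filter grouped by the design and by organ, and 4122 to 5226 with 1 goat left out. It was 3798 (1890 higher in adrenal cortex) with lncRNA features left out, where fewer features were tested, and 2554 (1540 and 1014) with the dry goats alone, where fewer samples were. Features higher in ovary, 2525, were 4898 with total counts alone and 1659 to 2201 with 1 goat left out, 1659 without goat 3. The interaction, 423 features, gave 614 without the goat block, 847 with DESeq2, 1531 with no filter, 236 without lncRNA features, 518 and 403 with the other filter groupings, and 156 to 1583 with 1 goat left out (1583 without goat 73, 253 or fewer without any other), so its count rests on single goats. The difference in library size was 0.117 to 0.336 on the log2 scale with 1 goat left out. The filter groupings and the fit without goats 54 and 64 were chosen after seeing the data.

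Of all 365 genes tested that the lists and the naming rule admit, 187 were called, and 112 of these were called in every setting that tested them. None of the 187 changed sign, while 75 of the 178 uncalled genes did in some setting. Among the printed genes 80 of 97 calls held in every setting, a higher share that follows from the narrowing of the selection and is no measure of stability. With the dry goats alone the folds of HSD11B1, PTGFR, ZP2, INHBA, JUN and SLC18A2 changed sign, to 0.35, 0.41, 0.06, 0.12, -0.57 and -0.32. That of SLC18A2 did so also with total counts alone (-0.04). ZAR1 did so with the lactating goats alone (0.23), RASSF4 without goats 54 and 64 (0.50), and SYCP3 without lncRNA features (-0.07), with total counts alone (-0.16) and without goat 73 (-0.11, the lowest with 1 goat left out, to 0.33 without goat 2). The cause was not tested. Depth limits single libraries to 0.519 to 1.08 CPM, so hormone receptors and oocyte genes at 0 were not detectable and are not shown to be absent.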
